A study of Mus musculus with 6 samples.

Results

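The nuclear genes for the subunits of the respiratory chain and of ATP synthase were followed in mouse brain tissue around a blood clot. They were chosen by gene symbol among annotated genes (the Nduf, Sdh, Uqcr, Cox and Atp5 families with Cyc1 and Cycs) with a summed count of at least 60 over 6 libraries, which gave 84 of the 24459 genes in the table. By symbol, 37 belong to complex I, 4 to complex II, 9 to complex III with Cyc1, 1 is cytochrome c (Cycs), 16 belong to complex IV and 17 to ATP synthase. Of 87 annotated genes whose symbols matched, 3 fell below the count minimum: Cox8c with 0 counts, a second identifier of Atp5o with 11 and Cox7b2 with 26. The lowest genes inside it were Cox4i2 with 99, Ndufa4l2 with 100 and Cox8b with 120. All 84 passed the filter on low counts used in the test.

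The tissue was perihematomal brain of mice labelled WT, taken on day 5 after intracerebral haemorrhage (ICH, bleeding into the brain). Both groups had the haemorrhage. In one, mice were given TEPP-46, an activator of pyruvate kinase M2, an enzyme of glycolysis, and in the other vehicle, daily after the bleed, with 3 samples in each group. The sources used here do not give strain, sex or age of the mice or how the haemorrhage was induced. The labels do not state whether each sample is a separate animal, and the spread between samples that the p-values rest on may be technical. Libraries are named by their column: C1, C2 and C4 are vehicle and T1, T2 and T3 are TEPP-46, by the letter alone, and values of a group are given in that order throughout.

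The respiratory chain sits in the inner mitochondrial membrane. Complex I (NADH dehydrogenase) and complex II (succinate dehydrogenase) pass electrons to ubiquinone, complex III (the cytochrome bc1 complex) passes them to cytochrome c, and complex IV (cytochrome c oxidase) passes them to oxygen. The protons pumped along the way drive ATP synthase. Neurons depend on this chain for most of their ATP, and pyruvate, the product of pyruvate kinase, is one of the fuels that reach it. Most subunits are encoded in the nucleus and a few in the mitochondrial genome, and NRF1, the ETS factor GABP and YY1 are known activators of the nuclear set.

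Libraries held between 5286426 and 6025064 counts for 18429 to 18985 detected genes. Marker lists differed between libraries of the same group. The summed level of 7 oligodendrocyte markers was 5361 CPM (counts per 1000000 counts of the library) in C4 and between 13166 and 15347 in the other 5. For 10 microglia and macrophage markers it was 641 CPM in C4, 3365 in C2 and 1113 to 2156 in the rest. For 6 choroid plexus and ependyma markers it was 221 CPM in C2, 184 in C4 and 2252 to 4975 in the rest. The 10 neuron markers, all detected in every library, summed to 8926 CPM in C4, 8561 in T1, 8086 in C1, 7548 in T2, 6969 in T3 and 6819 in C2. The log2 fold change of TEPP-46 over vehicle was positive for 6 of 6 choroid plexus and ependyma markers (median 1.11) and for 7 of 7 oligodendrocyte markers (median 0.37). It was also positive for 7 of 7 astrocyte markers (median 0.10) and 5 of 5 red blood cell genes (median 0.10). The neuron, microglia, mural cell and endothelium lists held both signs, and the medians of neuron and microglia markers were -0.01 and 0.00. No marker was called by edgeR or DESeq2. Those with an unadjusted p under 0.05 were Clic6 and Myh11. Clic6, of the choroid plexus list, was at 4.31, 1.40 and 1.13 CPM in vehicle and 5.64, 5.16 and 5.84 CPM in TEPP-46 (edgeR adjusted p = 0.731, DESeq2 adjusted p = 0.752). Myh11, a smooth muscle myosin, was at 10.7, 9.82 and 9.27 CPM against 3.82, 5.51 and 5.46 CPM (edgeR adjusted p = 0.475, DESeq2 adjusted p = 0.283).

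Some members hold known motifs near their start sites, which the choice by symbol did not use. RefSeq promoters on GRCm38.p6, 300 bases each from 250 before to 50 after the start site, were matched for 68 of the 84 members. The core of the NRF1 site, GCATGCGC, was found on either strand in 11 of the 68 (16.2%), against 3.05% of 27025 genes with a promoter and 5.81% of the 10162 of these that matched a tested gene by symbol. These windows show it in a member of each of the 6 classes, printed in the direction of the gene with the core in capitals.
Cycs, chr6:50566612-50566639, minus strand: atgctagctcGCATGCGCgcgcacaaac
Ndufa8, chr2:36049329-36049356, minus strand: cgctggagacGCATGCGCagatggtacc
Sdhb, chr4:140961207-140961234, plus strand: agcccagtggGCATGCGCcctacgggcc
Uqcrc1, chr9:108936670-108936697, plus strand: tccgctctgcGCATGCGCagcgcggctc
Cox6a1, chr5:115349101-115349128, minus strand: ggaacggggcGCATGCGCgctctcgctc
Atp5g2, chr15:102671070-102671097, minus strand: ctccggccgcGCATGCGCagagccttcc

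The YY1 motif AAGATGGC was found in 10 of the 68 promoters (14.7%), against 3.19% of all genes and 5.06% of tested genes. It was in 7 of 32 complex I promoters and in 3 of 15 of ATP synthase, and in 0 of 12 of complex IV, 0 of 5 of complex III and 0 of 3 of complex II. In 8 of the 10 it began between 22 and 38 bases after the start site, as in these windows, where the motif is in capitals.
Ndufs7, chr10:80249463-80249490, plus strand: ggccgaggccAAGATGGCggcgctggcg
Ndufs6, chr13:73328433-73328459, minus strand: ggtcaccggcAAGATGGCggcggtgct
Ndufc1, chr3:51408916-51408943, minus strand: cctgcggaacAAGATGGCgccgtccgta
Atp5j2, chr5:145191501-145191528, minus strand: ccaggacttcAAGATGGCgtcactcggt
The ETS core CCGGAAG was in 16 of the 68 (23.5%), against 9.93% of all genes and 18.9% of tested genes, so its share was near that of tested genes. A site of the form GCGCATGCGC holds the NRF1 core on both strands and was counted once, and the ETS core and the YY1 motif can share letters where they adjoin. A match is a run of letters in the reference and not evidence of a bound factor. The YY1 motif also holds ATG, the letters of a start codon, and whether its matches lie at translation starts was not examined.

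As a whole, the level of these transcripts differed between the groups by less than the spread between libraries. They took 4.26% of all gene counts in C1, 4.03% in C2 and 4.59% in C4, and 4.48% in T1, 4.16% in T2 and 4.21% in T3. The TEPP-46 values lay inside the vehicle range. The means were 4.29 ± 0.282% in vehicle and 4.28 ± 0.174% in TEPP-46 (SD over 3 libraries a group). Exact binomial intervals at 95% ran from 4.57 to 4.60% in C4 and from 4.01 to 4.04% in C2. They cover counting error only and take each count as a separate read. The gene count equalled the sum of the isoform counts for all 84 members, so a read counted for several isoforms enters gene counts, shares and ratios of shares more than once, and the intervals are then too narrow.

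Many members shared the library with their highest or lowest level, and these libraries did not follow treatment. The full order of the libraries differed between complexes. C4 held the highest level of 44 of the 84 members (52.4%), where it held the highest level of 24.2% of all genes tested. Among genes with a summed count of at least 1000 it was highest for 43 of 78 members (55.1%) and for 32.1% of genes. T1 held the highest level of 20 (23.8%, against 18.4% of all genes tested). C2 held the lowest of 29 (34.5%, against 18.8%) and T2 the lowest of 24 (28.6%, against 12.9%). The complexes differed in this: C4 was highest for 23 of 37 complex I genes and 9 of 16 complex IV genes but for 5 of 17 ATP synthase genes. Complex I, taken by symbol, includes Ndufa4, which is known as a subunit of complex IV and was at 1831 CPM in C4 and 1347 CPM in C2. With it, complex I transcripts summed to 12403, 11849 and 14096 CPM in vehicle and to 13263, 12154 and 12477 CPM in TEPP-46. ATP synthase transcripts summed to 11585, 11210 and 11971 CPM in vehicle and 12146, 11433 and 11798 CPM in TEPP-46 in the same order, a narrower range. The range over the vehicle libraries was the wider of both for 58 of the 84 members (69.0%), against 61.1% of all genes tested. Among genes with a summed count of at least 1000 the shares were closer, at 69.2% of members and 65.6% of genes.

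**Figure D1:**
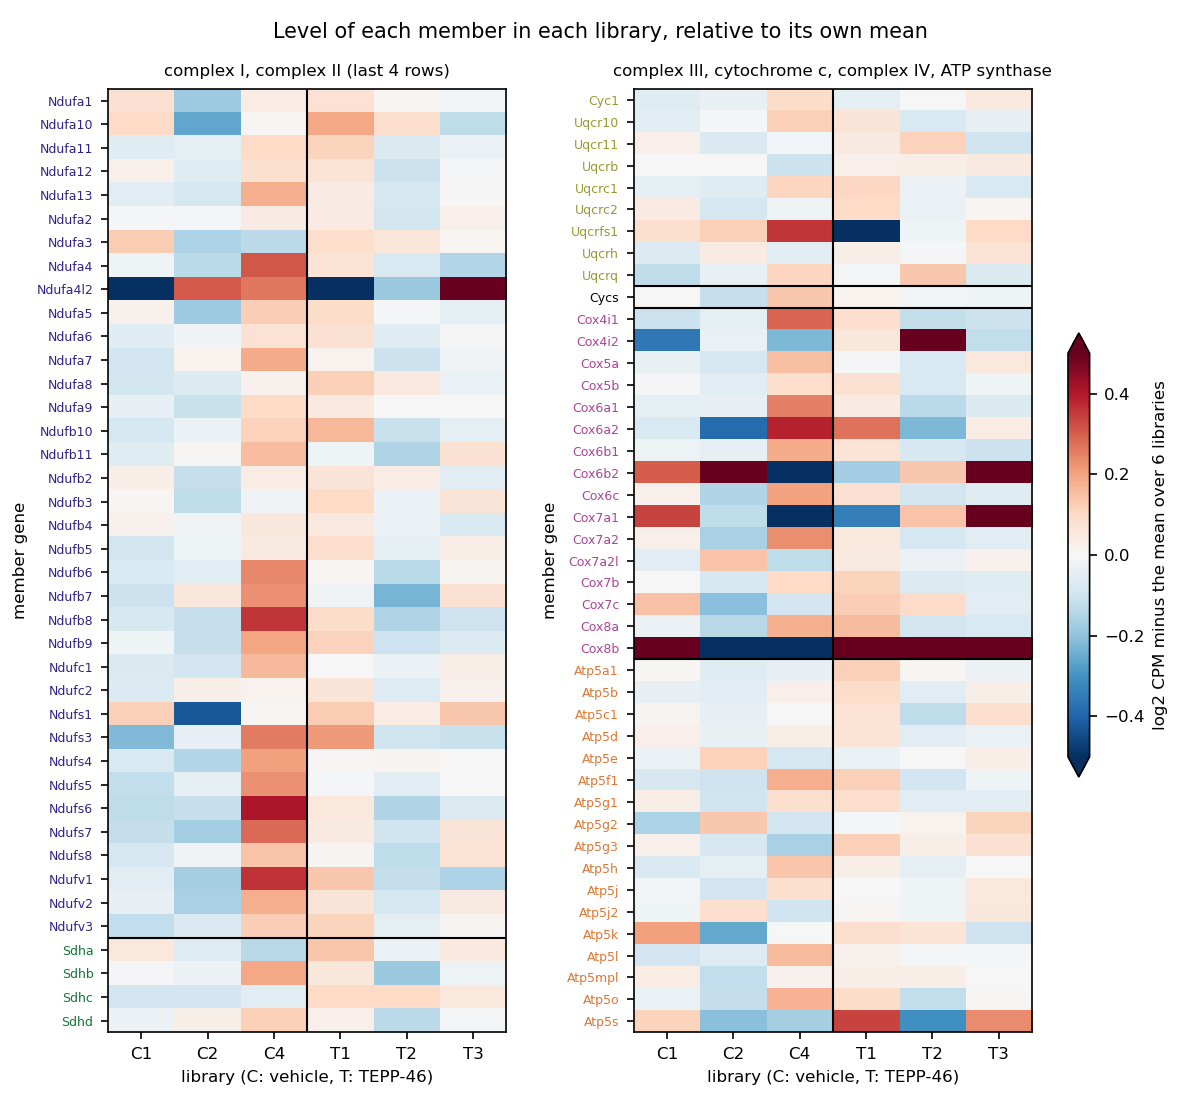
Level of 83 of the 84 members (rows, by complex, gene names coloured by complex) in each of the 6 libraries (columns), as log2 CPM minus the gene's own mean over 6 libraries; red is above and blue below the mean, and colours end at ± 0.5. The C4 column is red for most of complex I, and the strongest colours are in low-count genes such as Cox8b, Cox6b2 and Ndufa4l2.

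Taken as a sum, the mitochondrially encoded subunits had the opposite libraries at both ends. Their 13 mRNAs took 2.69% of counts in C1, 3.13% in C2, 2.36% in C4, 2.72% in T1, 3.12% in T2 and 2.76% in T3. C4, highest for the nuclear set, was lowest here, and C2, lowest for the nuclear set, was highest. Single mRNAs differed in this: mt-Nd1 was at 5150 CPM in C2 and 3849 CPM in C4, but mt-Co1 at 4682 and 4867 CPM. Counts of mitochondrially encoded mRNAs were 0.779 times those of the nuclear members in C2 and 0.516 times in C4, with T1 at 0.607 and T2 at 0.751 as the outer values in TEPP-46. C4 and T1 also had the highest summed neuron markers and C4 the lowest oligodendrocyte and microglia markers, as given above. Transcripts of 5 red blood cell genes summed to 1053 CPM in C2, the highest, and 319 CPM in C4, the lowest, with 458 to 748 CPM in the rest. The part of cell composition or blood content in these differences between libraries was not tested. In bulk tissue fewer cells of a type and less RNA per cell cannot be told apart.

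**Figure D2:**
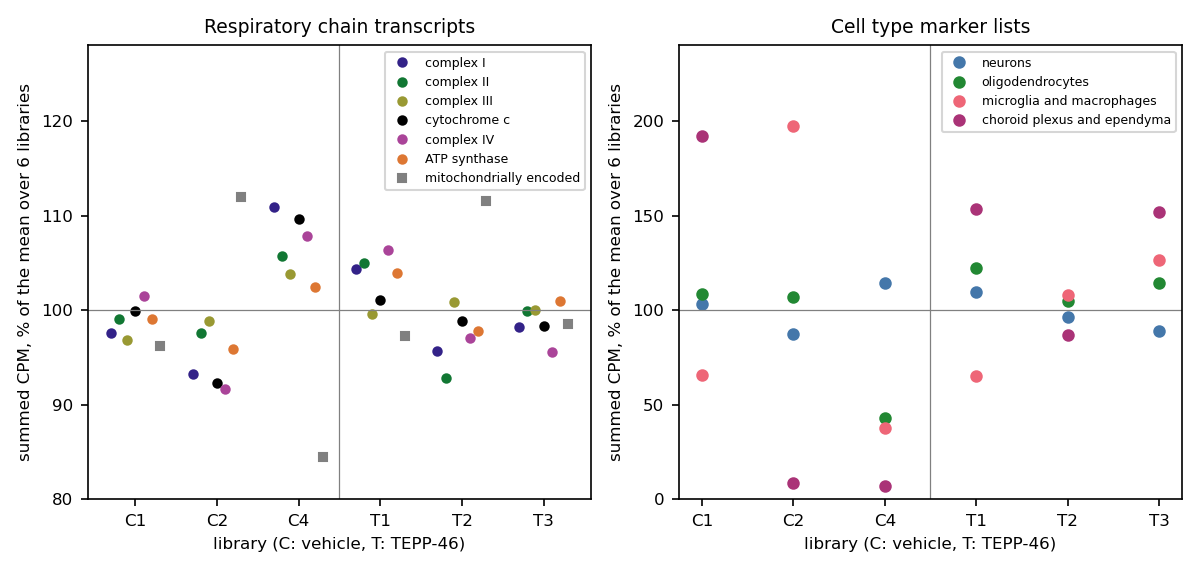
Summed CPM in each library as a percentage of the mean over the 6 libraries, for the nuclear-encoded members by complex and the 13 mitochondrially encoded mRNAs (left) and for 4 cell type marker lists (right, another scale). Points of a library are spread sideways for legibility. C4 is above the mean for all 6 nuclear-encoded classes and lowest for the mitochondrially encoded mRNAs, oligodendrocyte markers and microglia markers.

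The comparison of the groups asks whether respiratory chain transcripts differ between TEPP-46 and vehicle in the injured tissue. The counts do not measure the activity of pyruvate kinase M2. With edgeR's quasi-likelihood test and Benjamini-Hochberg adjustment over 14441 genes, 0 members passed 0.05, where 0.0% of all genes did. At an unadjusted p under 0.05 the count of members was 0, where 5.93% of all genes passed. DESeq2 called 0 members, where it called 0.588% of genes. The authors' deposited table called 0 members, where it called 1.42% of the 15896 genes to which it gives a p, and gave 0 members a p under 0.05, where 4.81% of these genes had one. Log2 fold changes of TEPP-46 over vehicle were positive for 37 members and negative for 47, with a median of -0.01, where the median of all genes tested was 0.01. They lay within 0.2 of zero for 79 of 84 members (94.0%), against 55.9% of all genes tested; among genes with a summed count of at least 1000 the shares were 77 of 78 members (98.7%) and 73.1% of genes. Fitted 95% intervals of the log2 fold change stayed within 0.5 of zero, a fold of 1.41, for 74 members. Among the other 10, where the data allow larger changes, were Atp5s, Cox4i2, Cox6a2, Cox6b2, Cox7a1, Cox8b, Ndufa4l2, Ndufs6 and Uqcrfs1.

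The sign of this small shift changed with the setting. Without C4, 67 members had a positive log2 fold change and the median was 0.04. Without T2 the count was 46 and the median 0.01, and with library totals alone as scaling they were 43 and 0.00, with 0 members called in each.

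**Figure D3:**
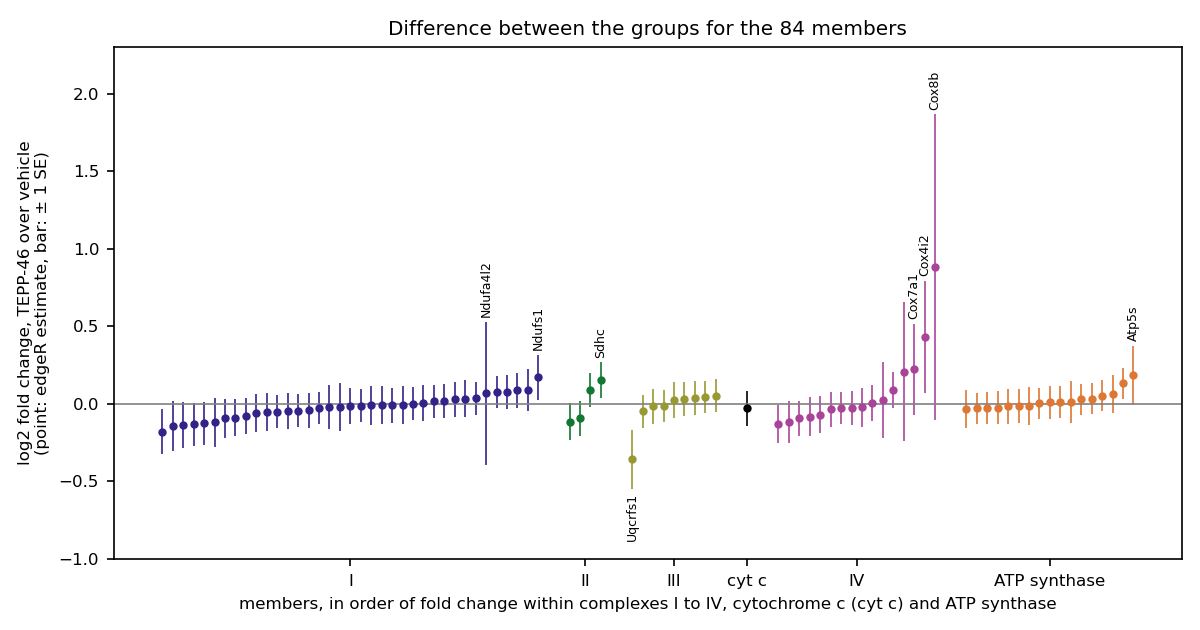
Log2 fold change of TEPP-46 over vehicle (y axis) for the 84 members, sorted within each complex (x axis); points are edgeR estimates and bars ± 1 standard error, from 3 libraries a group. Nearly all points lie within 0.2 of zero, with Uqcrfs1 at -0.36 and low-count members of complex IV such as Cox8b at 0.88 with long bars.

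Complex I gave a median log2 fold change of -0.02 over 37 genes, 13 positive and 24 negative. Ndufs1 (chromosome 1, 63143596 to 63176833), the large iron-sulphur subunit of the electron input module, was at 278, 191 and 257 CPM in vehicle and at 280, 263 and 281 CPM in TEPP-46. Its groups overlapped because C1 was as high as the TEPP-46 libraries, and C2 stood lowest (log2 fold change 0.17, SE 0.14, edgeR adjusted p = 0.973).

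Several complex I genes showed the C4 pattern most clearly, and these are named after their values were seen. Ndufs6, a zinc-binding accessory subunit, was at 290, 292 and 419 CPM in vehicle and at 329, 285 and 302 CPM in TEPP-46. Ndufv1, which binds the flavin and NADH, was at 311, 288 and 416 CPM in vehicle and at 355, 297 and 290 CPM in TEPP-46. Ndufb8, an accessory subunit of the membrane arm, was at 448, 436 and 606 CPM in vehicle and at 505, 426 and 441 CPM in TEPP-46. In all 3 genes C4 stood alone at the top, at 1.40, 1.35 and 1.34 times the mean of the other 5 libraries, and the remaining vehicle libraries lay among or close to the TEPP-46 ones. Over the complex this ratio ran from 0.895 to 1.40.

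Complex II is the only complex whose subunits are all nuclear-encoded, and it is also an enzyme of the citric acid cycle. Sdha (chromosome 13, 74322254 to 74350280), the flavoprotein that oxidises succinate, was at 172, 158 and 150 CPM in vehicle and at 182, 162 and 171 CPM in TEPP-46. Sdhb (chromosome 4, 140961203 to 140979193), the iron-sulphur subunit, whose promoter window is shown above, was at 338, 333 and 389 CPM in vehicle and at 354, 299 and 334 CPM in TEPP-46. Sdhd (chromosome 9, 50596357 to 50603812), a membrane anchor, was at 163, 169 and 180 CPM against 169, 152 and 165 CPM. The groups of these 3 genes overlapped, with log2 fold changes of 0.09, -0.12 and -0.09 and SEs of 0.11, 0.12 and 0.11.

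Sdhc (chromosome 1, 171127165 to 171150603), the other membrane anchor, was at 79.4, 79.5 and 81.5 CPM in vehicle and at 91.0, 90.9 and 88.0 CPM in TEPP-46. Every TEPP-46 library lay above every vehicle library, and both groups were tight. The log2 fold change was 0.15 with SE 0.12, an interval from -0.11 to 0.41 and an edgeR adjusted p of 0.971, so Sdhc did not pass. The fit shares its estimate of the spread between genes, so this error does not rest on the 6 values of Sdhc alone.

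Sdhc was 1 of 3 members whose groups did not overlap, all 3 higher in TEPP-46, where 5.67% of all genes tested were higher without overlap. No member was lower without overlap, where 5.76% of genes were. Atp5g3 (chromosome 2, 73908447 to 73911326), a gene for the c subunit of the ATP synthase rotor, was at 1167, 1084 and 1025 CPM in vehicle and at 1245, 1171 and 1208 CPM in TEPP-46. The gap between T2 and C1 was small beside the range of either group (log2 fold change 0.13, SE 0.10, edgeR adjusted p = 0.972). Uqcrb (chromosome 13, 66900617 to 66905378), an accessory subunit of complex III, was at 221, 221 and 205 CPM in vehicle and at 225, 225 and 228 CPM in TEPP-46, and only C4 stood clearly below (log2 fold change 0.05, SE 0.10, edgeR adjusted p = 0.997).

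Complex III gave a median log2 fold change of 0.02 over 9 genes. Uqcrfs1 (chromosome 13, 30540308 to 30545362), the Rieske iron-sulphur protein that hands electrons on within the complex, had the smallest p of all 84 members. It was at 169, 173 and 205 CPM in vehicle and at 103, 157 and 171 CPM in TEPP-46. T1 stood far below the rest, C4 was highest, and T3 lay inside the vehicle range. The log2 fold change was -0.36 with SE 0.19, an interval from -0.78 to 0.07, an unadjusted p of 0.0924 and an edgeR adjusted p of 0.897. Without T3 the unadjusted p was 0.0425 and the log2 fold change -0.49, with an adjusted p of 0.878. Without T1 the log2 fold change was -0.16 with SE 0.15. T1, low for Uqcrfs1, held the highest level of 20 other members. Uqcrh (chromosome 4, 116066965 to 116075071), the hinge protein, was at 576, 622 and 582 CPM against 617, 601 and 634 CPM.

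**Figure D4:**
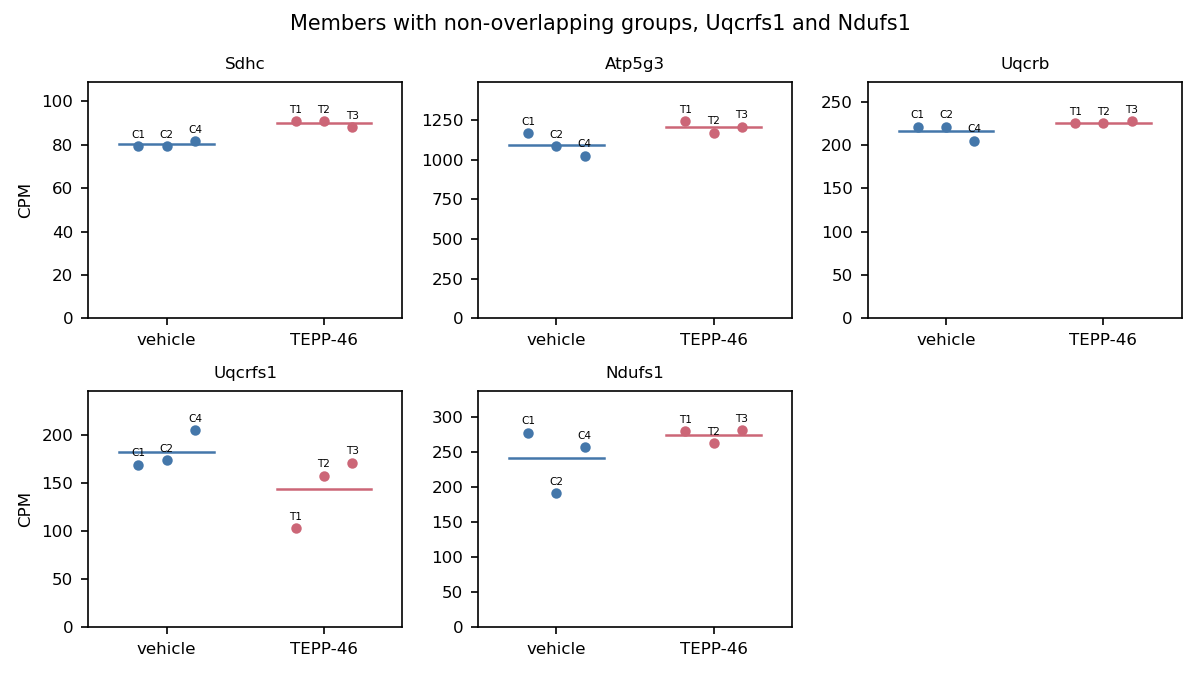
CPM of 5 members in each vehicle and TEPP-46 library (points, labelled by library; horizontal lines are group means, n = 3). Sdhc, Atp5g3 and Uqcrb are the members whose groups do not overlap, and Uqcrfs1 and Ndufs1 are further members named by their p, with T1 low for Uqcrfs1 at 103 CPM and C2 low for Ndufs1 at 191 CPM.

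Cycs (chromosome 6, 50562563 to 50566538), which encodes cytochrome c, the electron carrier between complexes III and IV and a trigger of apoptosis when released, was at 232, 215 and 255 CPM in vehicle and at 235, 230 and 229 CPM in TEPP-46. The TEPP-46 libraries lay close together inside the vehicle range (log2 fold change -0.03, SE 0.11, interval -0.28 to 0.22).

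Complex IV gave a median log2 fold change of -0.02 over 16 genes, 7 positive and 9 negative. Several of its subunits exist as paralogues with tissue-specific use. Cox4i1 (chromosome 8, 120668222 to 120674207), the common form of subunit 4, was at 1909, 1992 and 2515 CPM in vehicle and at 2176, 1890 and 1907 CPM in TEPP-46. C4 stood highest and T1 next (log2 fold change -0.12, SE 0.13). Cox7c (chromosome 13, 86044816 to 86046904), a small subunit of the membrane part, was at 4537, 3552 and 3840 CPM in vehicle and at 4467, 4379 and 3943 CPM in TEPP-46, and was highest in C1 (log2 fold change 0.09, SE 0.12). Cox6a1, Cox6b1, Cox7a2 and Cox8a, the forms common in brain, had log2 fold changes of -0.13, -0.09, -0.08 and -0.02 and overlapping groups. Cox7a2l, which ties complexes III and IV together in supercomplexes, was at 284, 324 and 269 CPM in vehicle against 303, 288 and 298 CPM in TEPP-46.

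The paralogues known from heart, skeletal muscle, lung or testis were present at low levels. Since one read could be counted for more than one isoform, genes were compared through a single isoform, the most abundant annotated one. Its CPM was divided by its length in kilobases. Whether counts grow with length in these nanopore libraries was not examined, so close values on this scale give no order between genes. On that scale the common forms averaged 1230 for Cox4i1, 1258 for Cox6a1, 975 for Cox6b1, 1067 for Cox7a2 and 2692 for Cox8a over the 6 libraries. Their rarer partners averaged 2.97 for Cox4i2 (the lung form), 23.7 for Cox6a2 and 15.3 for Cox7a1 (heart and muscle forms), 9.24 for Cox6b2 (the testis form) and 10.1 for Cox8b (the heart and muscle form). In every library each common form was far above its partner. The isoform used held only part of the counts of some genes, such as 45.6% for Cox4i1. Cox6b2 had 5 tested isoforms and Cox7a1 had 3, so the rare forms are not ranked against each other. Ndufa4, named for complex I but known as a subunit of complex IV, averaged 1405 and its paralogue Ndufa4l2, known as a hypoxia-induced gene and a pericyte marker in brain, 3.25.

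Cox8b (chromosome 7, 140898945 to 140900446) varied more than any other member. It had 38, 2 and 1 counts in vehicle and 22, 19 and 38 in TEPP-46, or 7.12, 0.351, 0.189, 3.65, 3.38 and 7.16 CPM. The 2 libraries near zero were both vehicle, and the other vehicle library was as high as the top TEPP-46 library. The log2 fold change was 0.88 with SE 0.98 and an interval from -1.40 to 3.17 (edgeR adjusted p = 0.985). Without C1 it was 3.99 with an unadjusted p of 0.000489 and an adjusted p of 0.519, so the gene did not pass there either. It was 0.36 without C2, 0.34 without C4 and 0.47 without T3. Ttr (transthyretin), which defines choroid plexus, was at 4053, 0.526 and 13.6 CPM in vehicle and at 3151, 1778 and 3161 CPM in TEPP-46. The same 2 libraries were lowest for Cox8b and for Ttr. The part of choroid plexus tissue in the Cox8b values was not tested.

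Other rare paralogues had other library orders. Cox6b2 was at 20.8, 24.6 and 6.05 CPM in vehicle and at 14.9, 18.5 and 26.8 CPM in TEPP-46, with C4 alone low. Cox7a1 was at 19.1, 13.9 and 10.2 CPM against 12.0, 16.7 and 22.2 CPM. Cox6a2 was at 15.0, 12.1 and 20.6 CPM against 19.1, 13.5 and 16.2 CPM, with C4 highest. Cox4i2 was at 2.25, 2.81 and 2.46 CPM against 2.99, 4.62 and 2.64 CPM, and Ndufa4l2 at 1.87, 3.51 and 3.41 CPM against 1.83, 2.49 and 5.09 CPM. The groups of these 5 genes overlapped, and none passed the edgeR test (adjusted p from 0.973 to 0.998).

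**Figure D5:**
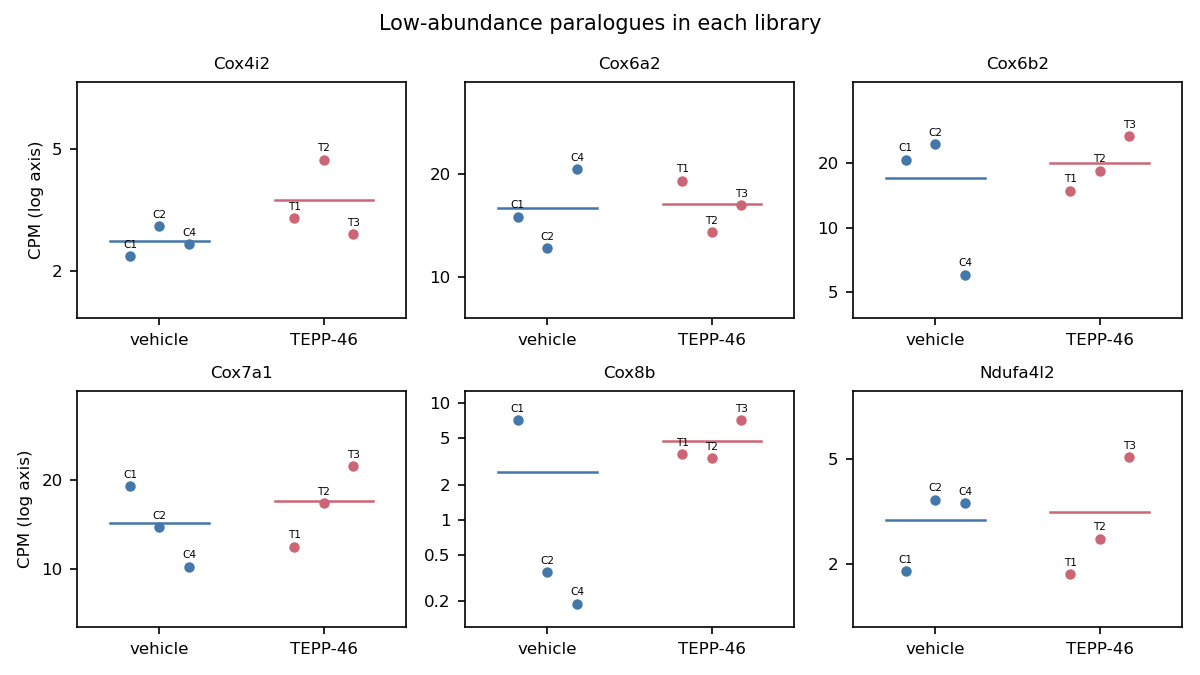
CPM, on log axes that differ between panels, of 6 low-abundance paralogues in each vehicle and TEPP-46 library (points, labelled by library; horizontal lines are arithmetic group means, n = 3). Cox8b is at 0.351 CPM in C2, at 0.189 CPM in C4 and at 3.38 to 7.16 CPM in the other 4, and Cox6b2 is lowest in C4 at 6.05 CPM.

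ATP synthase gave a median log2 fold change of 0.01 over 17 genes, 10 positive and 7 negative. Its catalytic F1 subunits varied little between libraries. Atp5a1 (chromosome 18, 77773729 to 77782869), the alpha subunit, was at 509, 486 and 493 CPM in vehicle and at 551, 511 and 497 CPM in TEPP-46. Atp5b (chromosome 10, 128083273 to 128090391), the beta subunit that makes ATP, was at 708, 704 and 742 CPM against 777, 704 and 744 CPM. Both overlapped between groups, with log2 fold changes of 0.05 and 0.03 and SEs of 0.10 each, and intervals from -0.17 to 0.28 and from -0.19 to 0.26.

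Atp5g1, Atp5g2 and Atp5g3 encode the same rotor c subunit with different targeting sequences. The groups overlapped for the other 2 genes: Atp5g1 was at 1070, 976 and 1107 CPM in vehicle and at 1110, 1008 and 1007 CPM in TEPP-46, and Atp5g2, with an NRF1 core in its promoter, at 191, 233 and 199 CPM against 212, 216 and 230 CPM. Per kilobase of the isoform used, the order was Atp5g3 at 795, Atp5g1 at 483 and Atp5g2 at 286 on average, and the ranges over 6 libraries did not overlap. Without division by length these isoforms kept that order, at 513 to 622, 266 to 315 and 187 to 228 CPM. Atp5h, the d subunit of the stalk, was at 1654, 1685 and 1922 CPM against 1785, 1685 and 1747 CPM. Atp5s, coupling factor B, which is not a core subunit, had a log2 fold change of 0.19 with SE 0.19, from 50.4, 40.3 and 41.6 CPM in vehicle and 59.1, 37.7 and 55.0 CPM in TEPP-46, and it was 0.06 without T1 and 0.35 without T2.

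Isoforms of the members did not separate the groups either. The isoform table held 289 isoforms of the 84 members, 67 of them new in this study, and 287 had a count. The new isoforms took 16.0% of member counts, and 23 isoforms annotated as targets of nonsense-mediated decay, from 20 members, took 2.89%. Of 243 member isoforms tested, 0 had an adjusted p under 0.05, where 0.0% of 33854 isoforms passed, and 0 an unadjusted p under 0.05, where 5.77% did. DESeq2 called 0 member isoforms, where it called 0.613% of isoforms. Isoform usage, the proportions within a gene, was called in 0 of 63 members with a test, against 0.0131% of genes, and the smallest unadjusted p of a member was 0.370 for Cyc1, the cytochrome c1 gene.

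The member isoforms with the smallest p were a new isoform of Cyc1, Uqcrfs1-201, a new isoform of Ndufb3, Atp5a1-204 and Ndufb8-209. The Cyc1 isoform was at 6.93, 9.30 and 9.65 CPM in vehicle and at 9.63, 14.9 and 12.4 CPM in TEPP-46 (log2 fold change 0.48, SE 0.24, edgeR adjusted p = 0.915). C4 and T1 met at nearly the same value. Uqcrfs1-201 carried all counts of Uqcrfs1 and repeated its values. Among 54 members with at least 2 isoforms of 300 counts or more, the top 2 isoforms differed by less than 1% in 5, and in Atp5g3 both had 19162 counts and the same count in every library, so counts of isoforms within a gene are not independent.

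A pair of known alternative exons was examined outside the naming rule, with the isoform table in view. Ndufv3 has a long form, Ndufv3-201, with an extra exon of 1092 bases (GRCm38 chromosome 17, 31527310 to 31528401). Its share of both annotated forms was 7.79, 8.76 and 5.35% in vehicle and 6.28, 9.16 and 9.66% in TEPP-46, from 693 to 907 counts a library. The means were 7.30 ± 1.76% and 8.37 ± 1.82% (SD, n = 3 in each group; an exact permutation test, two-sided, gave p = 0.5 and 0.7 after adjustment over 2 shares). Atp5c1, the gamma subunit that turns with the rotor, can skip an exon of 37 bases near its end (chromosome 2, 10056770 to 10056806). The form without it, Atp5c1-201, was 13.0% of all counts of the gene. Against Atp5c1-203, which holds the exon, it was 19.0 ± 1.78% of the pair in the vehicle group and 19.4 ± 1.15% after TEPP-46 (SD, n = 3 in each group; p = 0.7 by the exact permutation test). Atp5c1-202, with 28.5% of the counts of the gene, also holds the exon and was left out of this share because it differs at its first exon too. With 3 libraries a group the smallest p this test can give is 0.1. For both shares C4 was the lowest vehicle library and the groups overlapped.

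Other genes of the pathway did not pass either. A list of 51 genes held mainly assembly factors, which build the complexes without staying in them. It also held Ndufab1 and Usmg5, known as subunits of complex I and ATP synthase, and Atpif1, an inhibitor of ATP synthase. Of the 51 genes, 50 were tested, 17 had a positive and 33 a negative log2 fold change, and the median was -0.07. None was called, with 0 by edgeR and 0 by DESeq2. An unadjusted p under 0.05 was found for 2 of the 50, both lower, where 5.93% of all genes tested had one. These 2 are named here because of that p. Cox11, which delivers copper to complex IV, was at 32.2, 30.2 and 52.2 CPM in vehicle and at 6.14, 11.2 and 25.6 CPM in TEPP-46. Every TEPP-46 library was below every vehicle library, with T1 lowest (log2 fold change -1.44, SE 0.47, unadjusted p = 0.0147, edgeR adjusted p = 0.658, DESeq2 adjusted p = 0.067). Sdhaf1, needed for the iron-sulphur clusters of Sdhb, was at 19.3, 16.7 and 17.6 CPM against 2.49, 10.3 and 11.1 CPM, again without overlap and with T1 lowest (log2 fold change -1.18, SE 0.44, unadjusted p = 0.0249, edgeR adjusted p = 0.745, DESeq2 adjusted p = 0.333). Sdhb itself overlapped between groups. Of the 16 nuclear-encoded complex IV genes, 0 were lower without overlap, where 5.76% of all genes tested were. With so few genes, a count of 0 is near that share.

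Of 11 genes for the transcription of respiratory genes, 5 had a positive and 6 a negative log2 fold change, with a median of -0.11. Ppargc1b, a coactivator of NRF1, was at 2.81, 4.21 and 2.65 CPM in vehicle and at 5.81, 5.51 and 4.71 CPM in TEPP-46. The groups did not overlap, but the gene did not pass (log2 fold change 0.71, SE 0.31, unadjusted p = 0.0483, edgeR adjusted p = 0.838, DESeq2 adjusted p = 0.9999). Members with an NRF1 core had a median log2 fold change of -0.01 and those without it -0.02. Of the 13 mitochondrially encoded mRNAs, 11 had log2 fold changes above zero, their median was 0.07 and 0 were called. Of these, mt-Nd1 was at 4377, 5150 and 3849 CPM in vehicle against 4372, 4667 and 4331 CPM, and mt-Co1 at 4362, 4682 and 4867 CPM against 4773, 5131 and 4439 CPM.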

How the data were processed

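Per the labels’ protocols, libraries for nanopore sequencing were built from total RNA with a cDNA-PCR kit. The authors deposited raw counts per library for genes and isoforms, per the file headers. Per the submitters' processing notes the build was GRCm38 and a tool DESeq 1.10.1, while the headers name DESeq2. The sources used here do not give the aligner, the counter or how reads with several matches (isoforms, processed pseudogenes) were treated, so members with near-identical copies are uncertain. The authors' deposited p-values, log2 fold changes and calls enter only where named, and 12 further columns of values per library were left aside.

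CPM was computed from the deposited counts with the library's total. The gene test was that of edgeR 4.0.16 under R 4.3.3 (filterByExpr, TMM, robust quasi-likelihood test, group as the single term, Benjamini-Hochberg over all genes, threshold 0.05). Isoforms were tested the same way and isoform usage with diffSpliceDGE and Simes p-values. DESeq2 1.42.0 was the alternative. SEs and 95% intervals came from the edgeR F statistic. Shares were compared with exact permutation tests (SciPy 1.17.1). Coordinates are those of GENCODE for GRCm38, matched by identifier for all 84 members. Alternatives were other scalings, no low-count filter, DESeq2 and leaving out each library.

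The members, lists, motifs and tests were chosen with earlier results of these data known. The naming rule took, in each complex, members with an unadjusted p under 0.05 filled up to 2 by the smallest p, the member with the highest CPM, all of complex II, the paralogue sets and the F1 alpha and beta subunits, the 5 isoforms with the smallest p, and from each list the genes with an unadjusted p under 0.05 or else the 2 with the highest CPM. Genes outside it (Ndufs6, Ndufv1, Ndufb8, Ndufv3, Atp5c1, Cyc1, Ttr and those shown for a promoter motif or the interval count) were chosen after values were seen. Marker lists of astrocytes, mural cells, endothelium and red blood cells had medians of 0.10, 0.11, -0.02 and 0.10 in log2 fold change. The values of 1 member are not reported here.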

Additional observations from a re-analysis of the deposited data

How the results depend on the processing

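No paired analysis was possible because the columns of the tables do not carry the replicate numbers of the labels. No member gene or isoform was called, and no changed isoform usage, under any alternative run: other scalings, no low-count filter, DESeq2 (not for usage) and leaving out each library. Alternatives for usage and for the count of positive fold changes were chosen after seeing the data. The number of members at an unadjusted p under 0.05 ran from 0 to 1 when a library was left out (Cox8b without C1, Uqcrfs1 without T3) and was 0 under the other settings. The median log2 fold change of the members ran from -0.04 to 0.04 over the left-out libraries, was 0.00 with library totals alone, -0.02 with RLE and -0.03 with DESeq2 or no filter. It was above zero without C4 or T2 and with library totals alone. Of the 310 values of the 31 members named by the rule under alternatives, 24 had the other sign, in 12 members, and none was past the threshold. For Cox7a2l they were -0.00819 with RLE, -0.0131 without the filter and -0.00989 with DESeq2. With a library left out, log2 fold changes ran from -0.0715 to 0.015 for Atp5g1, from -0.0681 to 0.047 for Atp5h, from -0.19 to 0.0177 for Cox4i1, from -0.13 to 0.26 for Cox6a2, from -0.19 to 0.57 for Cox6b2, from -0.0134 to 0.47 for Cox7a1, from -0.17 to 0.0267 for Cox7a2, from -0.0499 to 0.095 for Cox7a2l, from -0.11 to 0.0718 for Cox8a, from -0.0805 to 0.0386 for Cycs, from -0.21 to 0.0171 for Ndufa4 and from -0.45 to 0.35 for Ndufa4l2. Counts limit the rare paralogues most: Cox8b had 1 and 2 counts in the lowest libraries, Cox4i2 99 and Ndufa4l2 100 over all 6. With 3 libraries a group, log2 shifts inside the intervals given above were not detectable for single members. The intervals are not adjusted for the number of genes tested, so they are not the limit of what could be called. Larger shifts also went uncalled by edgeR in genes outside the members. Myh11 had a log2 fold change of -1.02 with SE 0.25 (edgeR adjusted p = 0.475). Cox11 had -1.44 with SE 0.47 (edgeR adjusted p = 0.658).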
